A study of Homo sapiens with 16 samples.

Results

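The 38 members of the HOX cluster genes examined here were 10 genes of the HOXA cluster on chromosome 7, 10 of HOXB on chromosome 17, 9 of HOXC on chromosome 12 and 9 of HOXD on chromosome 2, out of 20037 protein-coding genes. A deposited peak counted for a gene when it overlapped the gene body with 5 kb on either side by at least 1 bp. Gene coordinates are those of RefSeq on GRCh38.p14, and the submitters' processing notes name GRCh38 and hg38. Chromatin was profiled by CUT&RUN, which cuts DNA with a nuclease tethered to an antibody, inside permeabilised cells, and sequences what is cut loose. All samples were WM164, an established human melanoma cell line, overexpressing either GFP (GFP cells, the control line) or MAFG (MAFG cells). Each line had 3 libraries with anti-MAFG, 3 with anti-MITF and 1 with anti-H3K4me3, and each of these 14 libraries had its own peak list. The 2 IgG controls, 1 per line, were not analysed here. The labels do not say whether replicates came from separate cultures or clones, so p-values measure only the spread between these libraries. Peak lists hold no expression values, so the level of MAFG in either line was not checked.

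HOX genes encode homeodomain transcription factors that give cells of the embryo their position along the body axis. Their order along a cluster follows the order in which they act, with paralogue groups 1 to 4 serving anterior structures such as the hindbrain and pharyngeal arches, groups 5 to 8 the trunk, and groups 9 to 13 posterior structures, limbs and the urogenital tract. Polycomb proteins keep unused stretches of the clusters silent, Trithorax proteins place trimethylation on lysine 4 of histone H3 (H3K4me3) at promoters in use, and differentiated cells keep part of this pattern. MITF is the basic helix-loop-helix regulator of the melanocyte lineage and binds E-boxes. MAFG belongs to the small MAF proteins, which dimerise with CNC or BACH partners on MAF and antioxidant response elements.

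The promoters shown here are RefSeq windows on GRCh38.p14 that run from 250 bases before to 50 bases after an annotated start. Such windows were at hand for 20 of the 38 members, 26 distinct windows in all. They were chosen after their values were seen, to show windows with and without H3K4me3 and with and without a motif. Capitals mark matches, on either strand, to the E-boxes CACGTG and CATGTG, to TGCTGA (an outer arm of the MAF element) or to TGACNNNGC (the antioxidant response element core).
HOXA4, chr7:27130708-27131007, minus strand: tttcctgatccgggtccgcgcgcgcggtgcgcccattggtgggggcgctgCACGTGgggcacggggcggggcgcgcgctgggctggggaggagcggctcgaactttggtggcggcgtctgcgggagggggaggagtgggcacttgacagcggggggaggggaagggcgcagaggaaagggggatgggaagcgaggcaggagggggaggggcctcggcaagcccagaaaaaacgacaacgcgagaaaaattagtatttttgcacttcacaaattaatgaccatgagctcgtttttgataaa
HOXD1, chr2:176188418-176188717, plus strand: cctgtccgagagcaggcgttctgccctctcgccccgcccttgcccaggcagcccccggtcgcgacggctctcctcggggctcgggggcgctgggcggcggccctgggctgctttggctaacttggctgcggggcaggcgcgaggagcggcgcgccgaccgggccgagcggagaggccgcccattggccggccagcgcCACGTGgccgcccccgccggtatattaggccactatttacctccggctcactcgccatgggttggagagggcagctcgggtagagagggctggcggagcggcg
HOXD8, chr2:176129455-176129754, plus strand: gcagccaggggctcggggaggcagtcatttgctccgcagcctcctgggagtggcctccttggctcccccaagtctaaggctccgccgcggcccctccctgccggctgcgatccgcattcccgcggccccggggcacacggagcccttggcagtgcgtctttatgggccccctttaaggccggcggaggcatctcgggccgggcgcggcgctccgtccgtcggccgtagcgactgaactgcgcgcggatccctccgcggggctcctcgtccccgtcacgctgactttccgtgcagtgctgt
HOXA3, chr7:27150901-27151200, minus strand: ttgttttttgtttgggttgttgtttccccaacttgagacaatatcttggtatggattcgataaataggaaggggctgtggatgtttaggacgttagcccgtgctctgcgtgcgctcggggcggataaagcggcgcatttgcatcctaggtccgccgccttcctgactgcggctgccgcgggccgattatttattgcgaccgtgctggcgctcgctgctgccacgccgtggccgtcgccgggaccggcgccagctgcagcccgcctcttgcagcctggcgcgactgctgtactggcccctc
HOXA7, chr7:27156626-27156925, minus strand: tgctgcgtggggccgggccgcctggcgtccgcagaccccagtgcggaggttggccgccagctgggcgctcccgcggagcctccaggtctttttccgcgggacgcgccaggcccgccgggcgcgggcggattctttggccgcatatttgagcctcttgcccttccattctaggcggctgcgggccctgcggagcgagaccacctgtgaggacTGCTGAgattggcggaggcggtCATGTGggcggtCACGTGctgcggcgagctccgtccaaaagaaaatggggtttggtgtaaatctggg
HOXD10, chr2:176116528-176116827, plus strand: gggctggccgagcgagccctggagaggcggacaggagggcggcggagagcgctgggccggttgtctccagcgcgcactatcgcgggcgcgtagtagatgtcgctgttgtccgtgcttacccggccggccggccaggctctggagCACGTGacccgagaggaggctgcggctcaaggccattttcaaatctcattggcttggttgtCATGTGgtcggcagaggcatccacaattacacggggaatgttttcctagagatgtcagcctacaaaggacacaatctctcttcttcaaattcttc
HOXD11, chr2:176107030-176107329, plus strand: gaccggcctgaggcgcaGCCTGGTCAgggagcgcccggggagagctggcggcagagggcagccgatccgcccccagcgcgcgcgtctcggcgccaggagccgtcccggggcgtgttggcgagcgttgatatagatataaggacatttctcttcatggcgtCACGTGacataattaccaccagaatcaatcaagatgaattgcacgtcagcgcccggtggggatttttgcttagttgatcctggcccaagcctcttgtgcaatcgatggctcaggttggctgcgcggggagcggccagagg
Of these, HOXA4, HOXD1, HOXD8 and HOXA3 overlapped an H3K4me3 peak in both lines, and HOXA7, HOXD10 and HOXD11 in neither. The HOXD1 window, which holds CACGTG, overlapped an anti-MAFG peak in 3 of 3 GFP-cell libraries and an anti-MITF peak in 1 of 3. The HOXA3 window, with no motif, overlapped both antibodies in 2 of 3. In HOXD8, also without a motif, 1 of 3 anti-MITF libraries and 0 of 3 anti-MAFG libraries had an overlapping peak. In HOXA4, which holds CACGTG, 0 of 3 anti-MITF and 1 of 3 anti-MAFG libraries did.

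Over the 26 windows, CACGTG occurred in 9 (34.6%), against 7.23% of all 34943 promoter windows of the same length. CATGTG occurred in 8 (30.8%) against 11.1%, TGCTGA in 4 (15.4%) against 17.3%, and TGACNNNGC in 3 (11.5%) against 13.3%. The 9 windows with CACGTG included HOXD3, HOXD10, HOXD11, HOXA7, HOXA9 and 1 of the 7 HOXA3 windows, none of which overlapped an H3K4me3 or factor peak. Of the 7 windows with an anti-MAFG or anti-MITF peak in GFP cells, 3 held any of the 4 motifs, against 18 of the 26 HOX windows (69.2%) and 40.1% of all windows. Median GC content was 58% in HOX windows and 58.7% in all, and the median ratio of observed to expected CpG was 0.855 and 0.577. H3K4me3 lay over 9 of the 26 HOX windows (34.6%) in GFP cells, against 40.8% of all windows. In MAFG cells it also lay over 9, against 35.4%. The 9 HOX windows under H3K4me3 in GFP cells had a median GC content of 63.3% (50% to 76.3%), and the 17 others 56.7% (43.7% to 72.7%), so the ranges overlapped. A match is a description of the letters only.

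Of the libraries as a whole, the lists held 14879 to 26221 anti-MAFG and 19828 to 20117 anti-MITF peaks in GFP cells, against 1836 to 2818 and 2116 to 2495 in MAFG cells. The H3K4me3 lists held 13579 and 11580. Depth is not given in the lists. Recovered from the authors' fold enrichment and p-value of each peak, it was 1.196 to 2.42 fragments per kb in GFP cells and 1.23 to 2.24 in MAFG cells. Peak calling had multiplied the pileup of every MAFG-cell library (7 of 7) by 0.35 to 0.637, and that of 1 of 7 GFP-cell libraries by 0.969. The control depth can be recovered only from a scaled library: its median was 0.781 fragments per kb over the 7 MAFG-cell libraries, and it was 2.34 in the 1 GFP-cell library so scaled. The lowest summit called held 5 to 7 fragments in the GFP-cell libraries and 8 to 12 in the MAFG-cell libraries. Cell line and scaling therefore cannot be told apart in any comparison of peak calls between the lines. H3K4me3 was present at 7 of 8 melanocyte-lineage genes in both lines (TYRP1 was the exception) and at 0 of 4 leukocyte genes. It was present at 1 of 5 keratinocyte genes (KRT10) and 1 of 3 endothelial genes (CDH5) in both lines. Of 5 fibroblast genes it was present at 2 in GFP cells and 1 in MAFG cells.

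In GFP cells, 31 of the 38 HOX genes (81.6%) had an H3K4me3 peak in their window, and in MAFG cells 27 (71.1%). Over all protein-coding genes the shares were 62.7% and 58.1%. Within 1 kb of an annotated start, which 20 of the 38 have in the table used, 11 HOX genes were marked in GFP cells, against 60% of all genes with a start, and 10 in MAFG cells, against 56.2%. All 10 HOXA genes, 8 of 10 HOXB, 8 of 9 HOXC and 5 of 9 HOXD genes were marked in GFP cells. By position, 8 of 11 anterior, 11 of 11 central and 12 of 16 posterior genes were. With 1 H3K4me3 library per line there is no test between the lines.

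Neither line had H3K4me3 at 7 HOX genes (37.2% of all genes were unmarked in both). HOXB1, which patterns rhombomere identity in the hindbrain, and HOXB13, a prostate and tail-bud gene that lies apart at the far end of its cluster, were both unmarked. So were HOXC12, HOXD3, HOXD4, HOXD10 and HOXD11. In HOXD, the unmarked genes formed a pair of gaps between marked stretches, HOXD11 with HOXD10 and HOXD4 with HOXD3, as the map of the clusters shows.

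Neighbouring windows overlap, so genes share peaks: the HOXA3 body spans HOXA4, HOXA5 and HOXA6, and HOXC4, HOXC5 and HOXC6 share 1 annotated start. Counted once each, 32 distinct H3K4me3 peaks lay in the windows in GFP cells (11 in HOXA, 9 in HOXB, 8 in HOXC, 4 in HOXD) and 24 in MAFG cells (8, 7, 5 and 4). Of the 31 genes marked in GFP cells, 22 had a peak over the gene body itself, and 9 only in the flank: HOXA2, HOXA6, HOXA7, HOXA9, HOXB5, HOXB7, HOXC8, HOXD9 and HOXD12. Over the gene body alone, 22 of 38 HOX genes were thus marked in GFP cells, against 59.1% of all genes. In MAFG cells 18 of 38 were, against 54.5%, so the higher HOX share was seen only with the flanks. The peak in the HOXA2 window lay over the noncoding gene HOTAIRM1, outside the HOXA2 body. That of HOXD12 was the peak that overlaps the HOXD13 body, with 3271 of its 5560 bp in the HOXD12 window in GFP cells.

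The broadest mark at any HOX gene was the peak over HOXB2, a hindbrain gene, and its antisense neighbour HOXB-AS1 (chr17:48540279-48547439 in GFP cells). It was 7161 bp wide in GFP cells and 7007 bp in MAFG cells. By base pairs of window covered, HOXB2 had the smallest relative difference of the 27 HOX genes marked in both lines. The peak over HOXD13, which shapes digits, and the stretch towards HOXD12 measured 5560 and 4942 bp (chr2:176092506-176098065 in GFP cells). The one at HOXA5, a gene of lung and trunk development, measured 3947 and 3881 bp. These values compare with a median of 2160 bp over all H3K4me3 peaks in GFP cells and 1781.5 bp in MAFG cells.

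By base pairs of window covered, the 3 most covered genes were HOXA3, HOXB3 and HOXC4. HOXA3, a gene of the pharyngeal arches, had 13759 bp in GFP cells and 11363 bp in MAFG cells over 6 and 5 peaks. HOXB3 had 10111 and 8942 bp, and HOXC4 7660 and 4387 bp. These 3 genes also have the longest bodies, and so the longest windows, of the 38. The 3 least covered of the marked genes were HOXA9 (570 bp in GFP cells), HOXA11 (593 bp) and HOXD9 (615 bp).

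**Figure D1:**
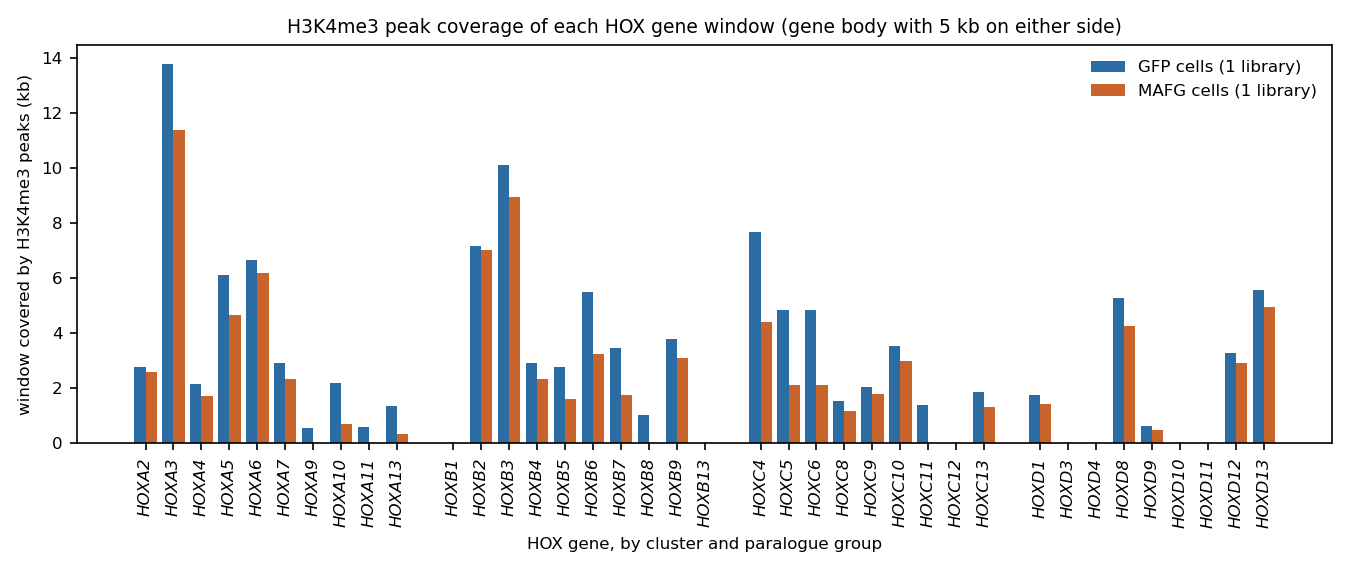
Kilobases of each HOX gene window covered by H3K4me3 peaks in the single library of GFP cells (blue) and of MAFG cells (orange), with genes in order of cluster and paralogue group. All 27 genes marked in both lines have the lower bar in MAFG cells, and 7 genes have no bar.

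H3K4me3 was called at 4 HOX genes in GFP cells only, against 4.63% of all genes, and at 0 in MAFG cells only, against 0.0799%. These 4 were HOXA9, a gene of blood progenitors and posterior trunk, HOXA11, a limb and uterus gene, HOXB8 and HOXC11. Their peaks in GFP cells were short: 570 bp at HOXA9, 593 bp at HOXA11, 1041 bp at HOXB8 and 1402 bp at HOXC11, where the peak also overlapped the noncoding gene HOTAIR. Summits held 22, 8, 23 and 26 fragments. Requiring a −log10 q of at least 5 added HOXA10 to the 4, and taking the same number of best peaks in both lists left HOXA9, HOXC11 and HOXB8. Read over the gene body alone, HOXD1 took the place of HOXA9.

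Of the 32 distinct peaks in GFP cells, 8 (25%) had no overlapping peak in MAFG cells, against 20.04% of all 13579 peaks. These 8 had fold enrichments of 4.59 to 12.3 and 8 to 32 fragments at the summit. Another 5 HOX peaks in that range of fragments were also called in MAFG cells, and of all 3742 peaks in that range 62.5% were not. All 24 HOX peaks of MAFG cells overlapped a peak of GFP cells.

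All 27 HOX genes marked in both lines had fewer base pairs covered in MAFG cells, as did 96.5% of the 11635 genes so marked. The median log2 ratio of MAFG to GFP cells was -0.32 for HOX genes and -0.38 for all. A ratio at least 2-fold lower was seen at 4 of 27 HOX genes against 8.76% of all genes, and a 2-fold higher one at 0 against 0.0774%. HOXA13, a gene of digits and the genital tubercle, went from 1361 bp to 350 bp (3.89-fold). HOXA10, a uterine and blood gene, went from 2204 bp to 694 bp (3.18-fold). HOXC5 and HOXC6, which share their window's peaks, each went from 4849 bp to 2110 bp (2.30-fold), as 2 of their 3 peaks were called only in GFP cells. By the width of the widest peak, only HOXA10 and HOXA13 passed 2-fold.

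Peak by peak, 23 of the 24 HOX peaks called in both lines were narrower in MAFG cells, against 94.7% of 10858 pairs, with a median log2 ratio of widths of -0.29 against -0.36. The summit heights, in recovered fragments divided by library depth, differed less: the median log2 ratio was -0.06 over 23 HOX pairs, 16 of them lower in MAFG cells, and -0.10 over all 10266 pairs, 64.5% of them lower. The HOXB2 peak has no recovered value in GFP cells and is left out of the heights. The extremes were a peak inside HOXA3 (chr7:27136168-27136865), with 13 fragments in GFP cells and 33 in MAFG cells and a log2 ratio of 1.04, and the HOXA13 peak, with 23 and 18 fragments and -0.66. The plot of summit heights shows the HOX peaks within the spread of the other peaks.

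**Figure D2:**
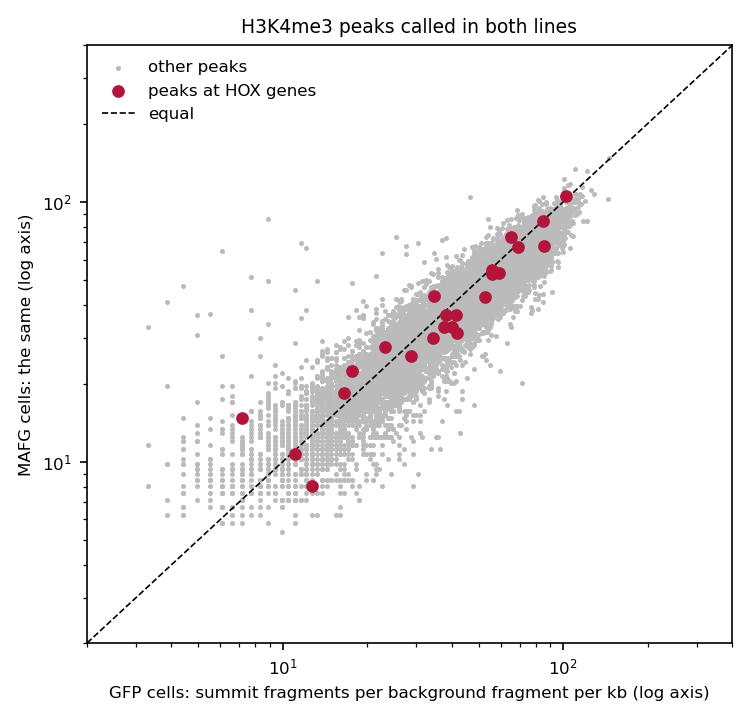
Summit height of H3K4me3 peaks called in both lines, in recovered fragments divided by background fragments per kb, GFP cells on the horizontal and MAFG cells on the vertical axis, both logarithmic; red points are 23 peaks at HOX genes, grey points the others and the dashed line marks equal heights. Most red points lie near or just under the line, inside the grey cloud.

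Within HOXA, the GFP-cell mark differed along the cluster. From HOXA2 to HOXA7 there were 7 H3K4me3 peaks covering 16786 bp, with up to 154 fragments at the summit, and 6 of them were also called in MAFG cells. From HOXA9 to HOXA13 there were 4 peaks covering 4135 bp, with 8 to 23 fragments, and 2 of them were also called in MAFG cells, covering 1044 bp. The latter included the peak at HOXA13 and the noncoding gene HOTTIP. All 7 regions with an anti-MAFG or anti-MITF peak in HOXA lay from HOXA2 to HOXA7, and 0 from HOXA9 to HOXA13.

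In GFP cells, the anti-MAFG libraries held 10, 9 and 9 distinct peaks in the HOX windows and the anti-MITF libraries 17, 13 and 18. In MAFG cells they held 0, 0 and 0, and 3, 1 and 0. The ranges of the lines do not overlap for either antibody, nor do they over all genes. An anti-MAFG peak lay at 28.1% to 41.6% of all genes per GFP-cell library and at 4.76% to 6.74% per MAFG-cell library. For anti-MITF these shares were 44.6% to 45.2% and 7.37% to 8.54%. In GFP cells, an anti-MITF peak in at least 1 of 3 libraries was found at 23 HOX genes, against 55.3% of all genes, and an anti-MAFG peak at 17, against 48.1%. At least 2 of 3 libraries had one at 18 (47.4%) with anti-MITF, against 45%, and at 10 (26.3%) with anti-MAFG, against 36.2%. All 3 had one at 13 with anti-MITF, against 34.2%, and at 7 with anti-MAFG, against 23.9%. By position, anti-MAFG was called in at least 2 of 3 at 4 of 11 anterior, 4 of 11 central and 2 of 16 posterior genes, and anti-MITF at 5, 7 and 6.

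**Figure D3:**
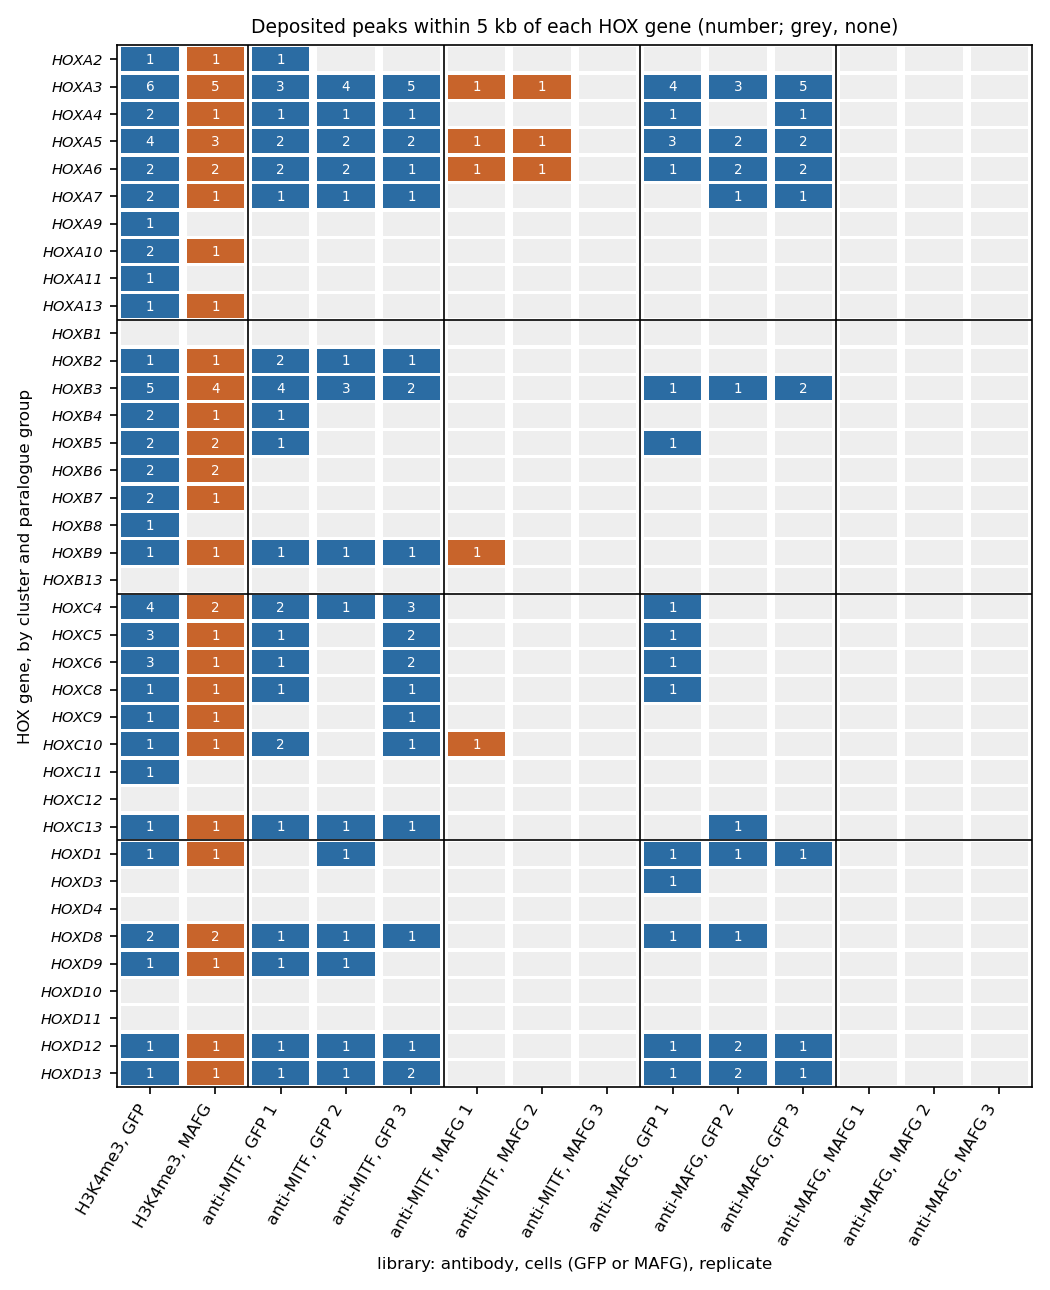
Number of deposited peaks in the window of each of the 38 HOX genes (rows) in each of the 14 libraries (columns), blue for GFP cells, orange for MAFG cells and grey for none. Anti-MITF columns of MAFG cells hold entries at 5 genes, and the 3 anti-MAFG columns of MAFG cells hold none.

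Nearly all HOX factor peaks lay on H3K4me3. Of the anti-MAFG peaks in GFP cells, 26 of 28 overlapped an H3K4me3 peak of the same cells (93.0% ± 6.1 per library, SD, n = 3), against 25.98% ± 0.58 of all anti-MAFG peaks. For anti-MITF, 48 of 48 did, against 40.6% ± 0.68 of all anti-MITF peaks. In MAFG cells 4 of 4 HOX anti-MITF peaks did. The difference from the other peaks of a library was not tested, and peaks away from genes enter the share over all peaks. The exceptions were 1 peak between HOXC13 and HOXC12 (chr12:53948905-53949383) and 1 inside HOXD3 (chr2:176166153-176166524), each in 1 anti-MAFG library.

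Merged across the 12 factor libraries, the peaks formed 28 regions: 7 in HOXA, 7 in HOXB, 8 in HOXC and 6 in HOXD. Of these, 11 came from 1 library alone. Anti-MAFG was called in at least 2 of 3 GFP-cell libraries at 7 regions, anti-MITF at 14, and both at 6. The 15 regions so called by either antibody all lay on H3K4me3 of GFP cells. Only 3 regions were called in all 6 GFP-cell libraries.

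The first of these lay inside the long HOXA3 gene, between HOXA4 and HOXA5 (chr7:27134357-27137614). The anti-MAFG peaks had authors' fold enrichments of 11.3, 8.48 and 9.83 in replicates 1 to 3, and the anti-MITF peaks 8.95, 5.88 and 5.63. The highest value came from an anti-MAFG library, and the H3K4me3 peaks at the region were low for the cluster, with 13 and 8 fragments in GFP cells. In MAFG cells 0 of 6 libraries had a peak there.

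The second lay inside HOXB3, a gene of the hindbrain and pharyngeal arches (chr17:48585135-48586654). Fold enrichments were 5.86, 5.59 and 6.28 with anti-MAFG and 9.08, 8.05 and 7.04 with anti-MITF. The third lay between HOXD13 and HOXD12 in no annotated gene (chr2:176096061-176098037), with 6.79, 5.83 and 5.67 with anti-MAFG and 12.6, 8.56 and 10.7 with anti-MITF. At both, every anti-MITF value was above every anti-MAFG value, and 0 of 6 MAFG-cell libraries had a peak. Fold enrichments come from lists with their own depth and control, so they are set side by side without a test.

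Further HOXA regions carried both antibodies in GFP cells. At HOXA5 (chr7:27141176-27144212) anti-MAFG fold enrichments were 3.69, 7.42 and 4.31, and anti-MITF gave 6.46 and 8.40 in replicates 1 and 2 and no peak in replicate 3. This was the only HOX region with an anti-MITF peak in 2 of 3 MAFG-cell libraries, at 8.08 and 8.50. As windows overlap, it is counted for HOXA3, HOXA5 and HOXA6 alike. A region between HOXA6 and HOXA7 (chr7:27149577-27150973), at a HOXA3 start shown above, had anti-MITF in 3 of 3 and anti-MAFG in 2 of 3 GFP-cell libraries. Another at HOXA3 and HOXA-AS2 (chr7:27122023-27123345) had each in 2 of 3. Through the region between HOXA6 and HOXA7, HOXA7 had anti-MITF in 3 of 3 and anti-MAFG in 2 of 3 GFP-cell libraries. HOXA4 had the same counts, through the region between HOXA4 and HOXA5 and a region at HOXA4 itself (chr7:27129921-27130726). The region at HOXA4 itself had each antibody in 1 of 3.

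Regions with anti-MITF in 3 of 3 GFP-cell libraries and little or no anti-MAFG were found in all clusters but HOXA. At HOXB9 (chr17:48625852-48626644), a thoracic patterning gene, anti-MITF gave 14.1, 11.1 and 8.54, the first being the highest factor enrichment at any HOX gene. It gave 6.84 in 1 of 3 MAFG-cell libraries, and anti-MAFG gave no peak in any of 6. HOXC4 (chr12:54053052-54054200; 8.78, 5.88 and 11.5) and HOXC13, a hair follicle and nail gene (chr12:53938267-53939265; 6.64, 7.93 and 6.38), had no anti-MAFG peak in the region. HOXD8 (chr2:176129734-176131010; 8.37, 7.31 and 8.47) and a site in HOXB3 (chr17:48555428-48555957; 6.64, 6.30 and 7.02) had anti-MAFG in 1 of 3. Peaks of the HOXD8 region reached the HOXD9 window in 2 of 3 anti-MITF libraries, and those inside HOXB3 the HOXB5 window in 1 of 3 with either antibody.

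HOXB2 had an anti-MITF peak in its window in 3 of 3 GFP-cell libraries, but at different places: in replicates 1 and 2 a region at one end of the gene (chr17:48544819-48545790), where the replicate 1 peak alone overlapped the gene body, and in replicates 1 and 3 separate sites beyond its other end. HOXC10 (chr12:53985202-53986039) had anti-MITF in 2 of 3 GFP-cell libraries, at 6.64 and 8.30, and in 1 MAFG-cell library, at 6.12. The shared start of HOXC4, HOXC5 and HOXC6 (chr12:54016908-54018330) had anti-MITF in 2 of 3 and anti-MAFG in 1 of 3. The region reaches into the HOXC8 window.

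HOXD1 went the other way. Its upstream region (chr2:176187350-176188588), over the noncoding gene HAGLR and the HOXD1 promoter shown above, had anti-MAFG in 3 of 3 GFP-cell libraries at 5.67, 5.17 and 5.18, and anti-MITF in 1 of 3 at 5.88. No anti-MAFG or anti-MITF library of MAFG cells had a peak there. Of the 7 regions with anti-MAFG in at least 2 of 3 GFP-cell libraries, those at HOXD1 and HOXA5 were called in more anti-MAFG than anti-MITF libraries.

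Gene by gene, anti-MITF was called in more GFP-cell libraries than anti-MAFG at 15 HOX genes, in fewer at 2 (HOXD1 and HOXD3) and in as many at 21, of which 14 had neither. This split was not computed over all genes. There too anti-MITF was called more often, at 45% of genes in at least 2 of 3 GFP-cell libraries against 36.2% with anti-MAFG. Anti-MITF in 3 of 3 with anti-MAFG in 0 of 3 was seen at HOXB2 and HOXB9, against 5.35% of all genes. The opposite was seen at 0 HOX genes, against 1.24%, and both antibodies in 3 of 3 at 6, against 18%. These 6 were HOXA3, HOXA5, HOXA6, HOXB3, HOXD12 and HOXD13. With 3 libraries against 3 the smallest exact permutation p is 0.1, so no test was made.

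Between the lines, anti-MAFG was called in 3 of 3 GFP-cell and 0 of 3 MAFG-cell libraries at 7 HOX genes, against 17.6% of all genes. They were HOXA3, HOXA5, HOXA6, HOXB3, HOXD1, HOXD12 and HOXD13. The opposite pattern was seen at 0, against 0.0948%. For anti-MITF the pattern of 3 of 3 and 0 of 3 held at 9 HOX genes, against 22.5%: HOXA4, HOXA7, HOXB2, HOXB3, HOXC4, HOXC13, HOXD8, HOXD12 and HOXD13. The opposite was seen at 0, against 0% of all genes. The HOX shares of 18.4% and 23.7% are near those of all genes.

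In MAFG cells, no HOX gene had an anti-MAFG peak in any library (8.46% of all genes did, and 4.76% in at least 2 of 3), and 5 had an anti-MITF peak in at least 1 (12.6%). The 5 were HOXA3, HOXA5, HOXA6, HOXB9 and HOXC10, the first 3 in 2 libraries (7.42% of all genes) through 1 region. Of the HOX peaks in GFP cells, 13 of 28 with anti-MAFG and 25 of 48 with anti-MITF held at least 12 fragments at the summit, the highest minimum of any factor library. With this minimum set in every library, the counts of 7 and 9 genes became 4 (6.86% of all genes) and 5 (9.31%). With the same number of best peaks in every list of an antibody, which leaves 1836 and 2116 peaks per list, both became 0 (1.13% and 1.12%). In that setting anti-MITF had 4 HOX peaks on H3K4me3 in either line and anti-MAFG 0 in either.

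Tested over both antibodies together, by an exact two-sided permutation of the line labels within each antibody with Benjamini-Hochberg adjustment over all 20037 genes, 0 HOX genes passed an adjusted p of 0.05, as did 0% of all genes in either direction. At an unadjusted p under 0.05, 6 of 38 had fewer calls in MAFG cells, against 17.7% of all genes. HOXB3, HOXD12 and HOXD13 had peaks in 6 of 6 GFP-cell and 0 of 6 MAFG-cell libraries (exact permutation p = 0.005, the smallest the design allows; adjusted p = 0.057). HOXD12 and HOXD13 share the region between them, and 1 further anti-MITF peak lay in the HOXD13 window alone. HOXA4, HOXA7 and HOXD8, with 5 of 6 and 0 of 6, had an exact permutation p of 0.02 (adjusted p = 0.113). Most of these counts rest on the flanks. Over the gene body alone, the difference in the share of libraries with a peak (MAFG minus GFP cells) was -1 at HOXB3 and -0.667 at HOXD8. It was -0.333 at HOXA4, -0.167 at HOXD13 and 0 at HOXA7 and HOXD12. With the summit required in the window, HOXA4 went from -0.833 to -0.333, and the other genes named here did not change. Over all genes 1759 had the smallest p, and at least 2004 would be needed for an adjusted p of 0.05.

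At 14 HOX genes no factor library of either line had a peak, against 37.7% of all genes, and 8 of these had H3K4me3 in GFP cells, against 9.56%. The 8 were HOXA9, HOXA10, HOXA11, HOXA13, HOXB6, HOXB7, HOXB8 and HOXC11, of which 5 are posterior. The other 6, HOXB1, HOXB13, HOXC12, HOXD4, HOXD10 and HOXD11, had neither mark nor factor, against 28.2%. HOXD3 had a factor peak without H3K4me3, and HOXA2, HOXB4 and HOXC9 had anti-MITF in 1 GFP-cell library each.

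Genes that work with or regulate the clusters were read in the same way. H3K4me3 was present in both lines at 8 of 9 HOX cofactor genes of the PBX, MEIS and PKNOX families, at 12 of 12 Polycomb genes and at 6 of 6 Trithorax and demethylase genes. It was present in neither line at any of the 8 cluster neighbours and ParaHox genes (the EVX, CDX and GSX genes and PDX1). A comparison set of 31 other developmental homeobox and patterning genes had it at 20 (64.5%) in GFP cells and 15 (48.4%) in MAFG cells, against 81.6% and 71.1% of HOX genes, a difference that was not tested. In that set, 5 of 31 genes were marked in GFP cells only, against 4 of 38 HOX genes. Anti-MITF in at least 2 of 3 GFP-cell libraries was found at 12 of its genes (38.7%), against 47.4% of HOX genes. Anti-MAFG was found at 8 (25.8%), against 26.3%. Neither difference was tested.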

How the data were processed

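CUT&RUN peaks of 14 libraries were read as deposited, 1 list per library, with replicates not pooled. Per the submitters' processing notes, cutadapt 1.8.1, Bowtie2 2.4.1, MACS2 2.1.1.20160309, ChIPseeker 1.32.1 and deepTools were used with GRCh38 and hg38; roles, the control and calling settings are not given in the sources used here. The deposited lists give, per peak, the authors' fold enrichment (a ratio to the local background), −log10 p and −log10 q, the lowest −log10 q being 2.00. The fold and q values are the authors' own.

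Presence was the overlap, by at least 1 bp, of a peak with a RefSeq gene body extended by 5 kb, computed for 20037 protein-coding genes (Python 3.11.15, numpy 2.4.6, pandas 2.3.3, scipy 1.17.1). Fragments at summits and depth were recovered as the whole number that, with 1 scale per library, returned both the authors' fold and −log10 p within 0.001. This succeeded for at least 95.6% of peaks in every GFP-cell library and 99.99% in MAFG cells, against 10.2% to 16.8% with a wrong scale. The lists give no depth otherwise, so no counting interval is given for a call.

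Calls were compared between lines by an exact two-sided permutation of line labels within antibody (400 assignments) with Benjamini-Hochberg adjustment over all genes. With 1 antibody, 20 assignments allow no p below 0.1. The procedure was tested on simulated data. Members and lists were chosen with earlier results of these data known. All 38 members are accounted for. Those described in full have a factor peak in at least 2 of 3 libraries of a group, H3K4me3 in 1 line only, the 3 most or 3 fewest covered base pairs, or pass the test. Alternatives changed the window, the peak threshold, the number of peaks, the genes tested and the libraries.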

Additional observations from a re-analysis of the deposited data

How the results depend on the processing

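Of 230 recomputed values, 203 were labelled the same, 18 weaker and 9 stronger. A count was labelled the same when it stayed close to the main count, and counts carry no direction. For the adjusted p of a single gene, the label meant the same side of the threshold and no reversed sign. It includes differences that fell to 0, as at HOXB3, HOXA4, HOXA7 and HOXD8 with equal numbers of best peaks. The same held at HOXA7 and HOXD12 over gene bodies. The test between lines, with 0 HOX genes called, called 3 (14.1% of all genes left) when only genes with a peak in some library were tested. These 3 entered that filter through GFP cells alone, so this count is no support. Leaving out 1 library gave 0 to 4, the 4 being HOXB3, HOXD8, HOXD12 and HOXD13 without replicate 3 of anti-MAFG in GFP cells (12% of all genes). With the replicate block the count was 0, with a smallest adjusted p of 0.354 (exact sign flips, smallest p 0.03125). Same-numbered libraries of the lines did not deviate together (r from -0.019 to 0.0027 across genes). Presence of peaks cannot show whether such libraries shared a culture or batch, so pairing stays open.

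For anti-MAFG in 3 of 3 GFP-cell and 0 of 3 MAFG-cell libraries, the 7 HOX genes became 3 over gene bodies (13.9% of all genes), 2 of 20 within 1 kb of the start (10.2%), 3 at a −log10 q of at least 5 (11.6%) and 0 with equal numbers of best peaks (1.13%). For anti-MITF, the 9 became 4 over bodies (17.5%), 2 of 20 at starts (16%) and 0 with equal numbers (1.12%). With at least 12 summit fragments, a setting chosen after seeing the data, they became 4 (6.86%) and 5 (9.31%). Anti-MITF without anti-MAFG in GFP cells, at 2 genes, became 0 at starts (5.66%) and 0 with equal numbers (2.27%). H3K4me3 within 1 kb of the start was called at 11 of 20 HOX genes in GFP cells (60% of all genes), 10 in MAFG cells (56.2%) and 1 in GFP cells only (3.89%). A 2-fold narrower mark, at 4 genes, held at 2 by the widest peak (10.5%). Factor peaks on H3K4me3 in GFP cells became 14 for anti-MAFG at the higher q. With equal numbers they became 0 for anti-MAFG and 4 for anti-MITF, as lists of 1836 and 2116 peaks then remain. The cause of the other changes was not tested. Calls with few fragments limit all counts: the lists name only what passed a threshold.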

Other observations

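Of 5 miRNA genes of the MIR10 and MIR196 families inside the clusters, a chosen list, read with the same 5 kb flank, 3 had H3K4me3 in both lines. MIR10A, beside HOXB4, had 3657 bp covered in GFP cells and 2744 bp in MAFG cells, MIR196A2 in HOXC 1732 and 1321 bp, and MIR196B beside HOXA10 1611 and 694 bp. MIR10B beside HOXD4 and MIR196A1 between HOXB9 and HOXB13 had none in either line. An anti-MITF peak was present in 1 of 3 GFP-cell libraries at MIR10A and MIR196A2, an anti-MAFG peak in 1 of 3 at MIR196A1, and 0 of 6 MAFG-cell factor libraries had a peak at any of the 5.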
